A study of Mus musculus with 16 samples.

Results

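Tumours raised from 1 cell line and carrying 1 guide RNA still differ from each other, and those differences are described here. Of the 16 RNA-seq libraries of the study, 8 came from tumours, and all 8 were used. These were 4 tumours with a scramble guide (sgScramble 1 to 4) and 4 with a guide named for Nlrc5 (sgNlrc5 1 to 4). Every gene was centred on the mean of its own guide, so that each value says how far 1 tumour lay from the other tumours of that guide, and the guides were not compared with each other. All 8 were tumours of B16F10-TDMa, a derivative of the mouse melanoma line B16F10, and the labels do not say what TDMa stands for. No treatment, host strain, host sex, age, injection site or clone number was given in the sources used here, and whether each library came from a separate animal was not stated. The p-values below therefore measure the spread between these libraries.

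A solid tumour sampled whole is a mixture of melanoma cells, leukocytes, vessels, fibroblasts and blood. Interferon gamma, released mainly by T cells and NK cells, raises the transcription factor IRF1, guanylate-binding proteins, immunity-related GTPases, the peptide-loading machinery of MHC class I and, through the transactivator CIITA, MHC class II. NLRC5 is the matching transactivator for class I genes, and pigment genes such as Pmel, Dct and Tyr mark the melanocytic lineage of B16F10 cells.

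The tumour table listed 14933 genes, of which 13385 had a mean normalised count of at least 10 and were tested. Recovered reads ran from 12663647 to 16390886 per tumour, the lowest in sgScramble 1 and the highest in sgScramble 4. Mitochondrially encoded genes took between 2.65% and 7.11% of reads. Among 34 gene lists with 516 genes, 414 genes passed the filter. All 21 pigment genes passed, and Dct alone lay between 429140 and 659930 normalised counts in the sgScramble and sgNlrc5 tumours together. Markers of tissue next to the tumour were mostly below the filter: 1 of 13 keratinocyte genes, 3 of 10 adipocyte genes, 6 of 17 skeletal muscle genes and 4 of 11 B cell genes passed. All 21 T cell genes and 15 of 16 macrophage genes passed. In bulk tissue, fewer cells of a type and less RNA per cell cannot be told apart.

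Nlrc5 itself (ENSMUSG00000074151) was 837, 257, 559 and 656 normalised counts in sgScramble tumours 1 to 4, and 4381, 3434, 3655 and 4195 in sgNlrc5 tumours 1 to 4. The lowest sgScramble value was in tumour 2, which was also lowest for the interferon-induced gene Irf1. The slope of Nlrc5 on Irf1 within guides was 0.63 ± 0.22 log2 per log2 (standard error, 8 tumours), which did not pass (limma adjusted p = 0.409).

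**Figure D1:**
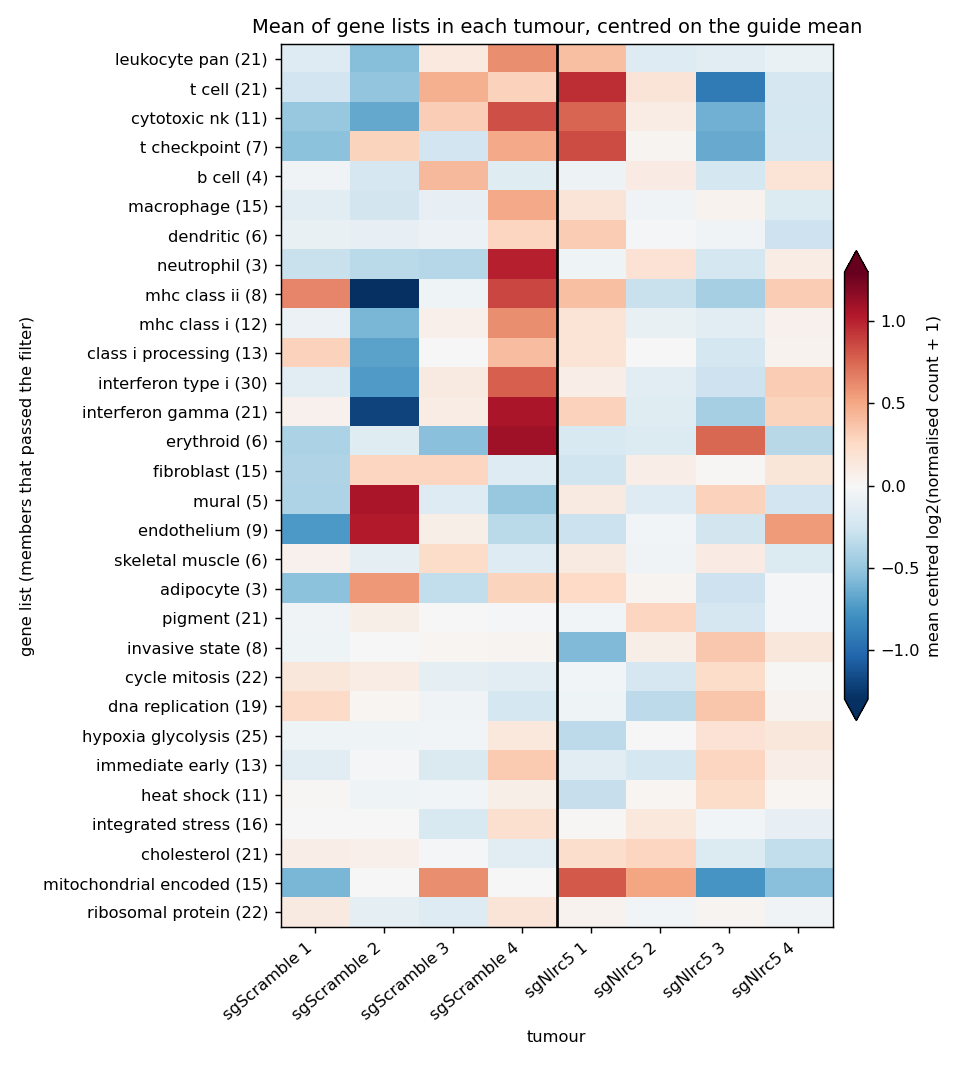
Mean of each gene list in each tumour, on the log2(normalised count + 1) scale and centred on the mean of its guide; colour gives the centred value, rows are lists with the number of members that passed the filter, and the black line separates the guides. The most extreme colours also stand for values past the ends of the scale. Interferon gamma genes run from -1.20 in sgScramble 2 to 1.06 in sgScramble 4, T cell genes from 0.96 in sgNlrc5 1 to -0.92 in sgNlrc5 3.

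The interferon response, MHC class II and the class I loading machinery varied together. Members of the interferon gamma list moved together: the median correlation between pairs of its 21 members was 0.90 over the 8 centred tumours. It was 0.96 for 8 MHC class II genes and 0.85 for 30 type I interferon genes, against -0.0011 for pairs among all 13385 genes. These correlations are descriptions over 8 points from 8 libraries, and genes of a library share its depth. In sgScramble tumours the mean of the interferon gamma list was highest in tumour 4 (1.06 above the guide mean, log2) and lowest in tumour 2 (-1.20), with tumours 1 (0.053) and 3 (0.092) near the mean. In sgNlrc5 tumours the spread was smaller, from 0.30 in tumour 1 and 0.29 in tumour 4 through -0.16 in tumour 2 to -0.43 in tumour 3.

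Irf1, a transcription factor of the early interferon gamma response, served as the index gene of this pattern. It was added as an index gene after the values had been seen, so its calls are no independent support for the pattern. Its level was 986, 602, 1100.5 and 2078 normalised counts in sgScramble tumours 1 to 4 and 2210.1, 1643, 1328 and 1960.1 in sgNlrc5 tumours 1 to 4. Tumours 2 and 4 thus lay at the 2 ends of the sgScramble group, and tumours 3 and 1 at those of the sgNlrc5 group. For every other gene, limma tested the slope of its log2 level on the log2 level of Irf1 with a mean per guide, two-sided, with Benjamini-Hochberg adjustment at 0.05. A slope of 1 means that the gene changed in proportion to Irf1. Of 13384 genes, 157 (1.17%) were called higher together with Irf1 and 0 (0%) opposite, and 956 had an unadjusted p below 0.05. Voom on the recovered reads called 112.

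Of the interferon gamma list, 15 of 20 tested members were called, with a median slope of 1.28, against 0.0012 over all genes tested. Gbp4, a guanylate-binding GTPase that acts against intracellular pathogens, was 564, 149.9, 753 and 2114 normalised counts in sgScramble tumours 1 to 4 and 2801, 1955, 1312 and 3093 in sgNlrc5 tumours 1 to 4. It spanned 14.1-fold in sgScramble tumours and 2.36-fold in sgNlrc5 tumours, and in each guide the tumour lowest for Irf1 was lowest for Gbp4. Its slope was 2.04 ± 0.14 (limma adjusted p = 6.68e-05), so it moved more steeply than Irf1. The rule that named Gbp4 required the same sign of slope in each guide. Gbp2 (slope 1.78), Gbp6 (1.68), Gbp5 (1.47), Gbp3 (1.41) and the immunity-related GTPases Igtp (1.59) and Irgm1 (1.23) were also called. The chemokine Cxcl9 had a slope of 0.73 ± 0.16, which did not pass (limma adjusted p = 0.0599).

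Genes outside the lists that followed Irf1 included Fgl2, a secreted immunoregulatory protein, and Il18bp, an interferon-induced inhibitor of interleukin 18. Fgl2 was 132, 63.0, 130.2 and 378 normalised counts in sgScramble tumours 1 to 4 and 944, 589, 498 and 707 in sgNlrc5 tumours 1 to 4, with a slope of 1.39 ± 0.11 (limma adjusted p = 0.00015). Il18bp was 174, 68.7, 228 and 565 in the sgScramble tumours and 863, 776, 529.8 and 928 in the sgNlrc5 tumours, with a slope of 1.58 ± 0.13 (limma adjusted p = 0.000176). Both were high in sgScramble 4 and low in sgScramble 2.

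Type I interferon genes moved the same way with shallower slopes: 21 of 30 were called and the median slope was 0.75. Zbp1, a sensor of Z-form nucleic acids, was 259, 88.8, 343 and 983 normalised counts in sgScramble tumours 1 to 4 and 1116, 809.7, 750.5 and 1412 in sgNlrc5 tumours 1 to 4, with a slope of 1.79 ± 0.16 (limma adjusted p = 0.000253). Ifi44 (1.45), Ifit3 (1.32) and Isg15 (0.99) were among the others called. The 2 interferon lists differed in the tumour that led the sgNlrc5 group: it was tumour 4 for the type I list (0.33) and tumour 1 (0.30), closely followed by tumour 4 (0.29), for the interferon gamma list. Whether that order differs beyond error was not tested.

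MHC class II genes, normally expressed by antigen-presenting cells and inducible by interferon gamma elsewhere, gave 6 called of 8. Ciita, their transactivator, was 99.97, 18.1, 56.7 and 146 normalised counts in sgScramble tumours 1 to 4 and 360.0, 211, 174 and 342 in sgNlrc5 tumours 1 to 4. Its slope on Irf1 was 1.55 ± 0.25 (limma adjusted p = 0.0112). H2-Ab1, a class II beta chain, was 1329.5, 381, 999 and 1779 in the sgScramble tumours and 9036, 4895, 4685 and 7064 in the sgNlrc5 tumours, with a slope of 1.20 ± 0.18 (limma adjusted p = 0.00714). H2-Aa, H2-Eb1, H2-DMa and the invariant chain Cd74 were called too. In sgScramble 1 the class II list stood 0.63 above its guide mean, although Irf1 there lay slightly below the mean.

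Of 13 genes of antigen processing for class I, 6 were called: the immunoproteasome subunit Psmb10 (slope 0.96), the proteasome activator Psme2 (0.69), tapasin Tapbp (0.94), its relative Tapbpl (1.08), the peptide transporter chain Tap2 (0.87) and the trimming peptidase Erap1 (0.71). Psmb10 was 1118, 583, 879 and 1948 normalised counts in sgScramble tumours 1 to 4 and 2439.7, 1699.8, 1466 and 2103 in sgNlrc5 tumours 1 to 4 (limma adjusted p = 0.000833). Tap1, the other transporter chain, had a slope of 0.69 ± 0.16 that did not pass (limma adjusted p = 0.0789). Its values were 2919, 1125, 2093 and 2987 in the sgScramble tumours and 11929, 10798, 9267 and 11453 in the sgNlrc5 tumours. Psmb8, an immunoproteasome subunit, was highest in sgScramble 1 (996) rather than in sgScramble 4 (355).

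**Figure D2:**
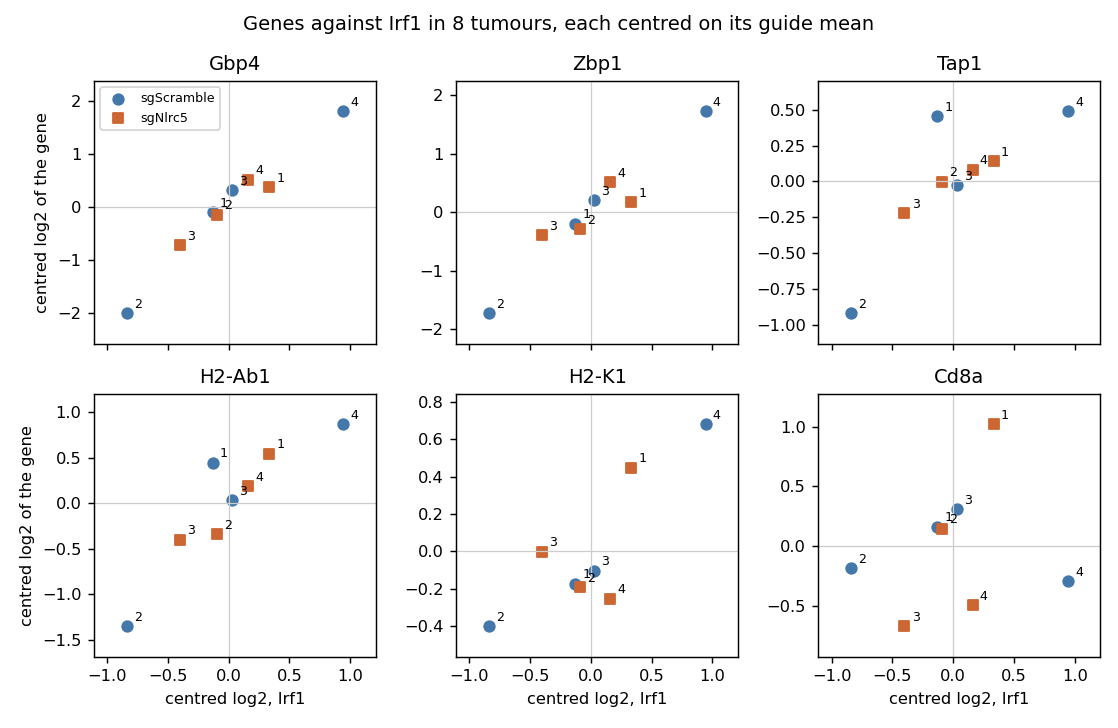
Centred log2 level of 6 genes (vertical axes) against that of Irf1 (horizontal axes) in the 8 tumours; circles are sgScramble tumours, squares sgNlrc5 tumours, and the digit is the tumour number. Gbp4 and Zbp1 are lowest in sgScramble 2 and highest in sgScramble 4, as Irf1 is, while Cd8a is highest in sgNlrc5 1 and shows no such order in sgScramble tumours.

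On Irf1, 11 of 12 members of the class I list had positive slopes in each guide alone (91.7%, against 29.6% of all genes). Of this list, 2 of 12 members passed with Irf1, with a median slope of 0.58, and neither was a classical heavy chain. The 2 were the non-classical H2-T23 (slope 1.39 ± 0.20, limma adjusted p = 0.00399), the mouse Qa-1 molecule that NK cells read, and H2-T22 (0.68 ± 0.14, limma adjusted p = 0.0448). H2-T23 was 448, 122, 391 and 899 normalised counts in sgScramble tumours 1 to 4 and 10126, 7399, 8629 and 11789 in sgNlrc5 tumours 1 to 4. H2-K1, a classical heavy chain, was 652, 556, 684 and 1179 in the sgScramble tumours and 5111, 3277, 3736 and 3138 in the sgNlrc5 tumours. Its slope of 0.59 ± 0.14 did not pass (limma adjusted p = 0.0775), and sgNlrc5 4, which was second of its guide for Irf1, was lowest for H2-K1. H2-D1 was 972, 911, 1395 and 1732 in the sgScramble tumours and 30971, 31899, 27621 and 29496 in the sgNlrc5 tumours, with a slope of 0.48 ± 0.11 (limma adjusted p = 0.083).

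B2m, the light chain of every class I molecule, spanned 2.14-fold among sgScramble tumours and 1.44-fold among sgNlrc5 tumours. Its values were 32740, 15309, 19661 and 24175 in sgScramble tumours 1 to 4, highest in tumour 1, and 90037, 99657, 69372 and 86192 in sgNlrc5 tumours 1 to 4, highest in tumour 2. The slope of B2m on Irf1 was 0.32 ± 0.21 (limma adjusted p = 0.83). The other 7 members did not pass either. Their slopes on Irf1 ran from 0.10 (H2-T10, limma adjusted p = 0.95) through H2-Q7 (0.37), H2-M3 (0.43), H2-Q4 (0.58), H2-Q6 (0.72) and H2-T24 (0.72) to 1.18 (H2-K2, limma adjusted p = 0.515). H2-M3, which presents formylated peptides, was 375, 120.3, 281 and 228 in the sgScramble tumours and 1711, 1378, 1247 and 1291 in the sgNlrc5 tumours, highest in tumour 1 of each guide. H2-Q7, by contrast, varied only 1.19-fold among sgNlrc5 tumours and its slope was negative there (-0.078). Near-identical heavy chains can share reads, so values of single members are uncertain. With H2-K1 itself as the index gene, 0 of 13384 genes (0%) were called, 1231 at an unadjusted p below 0.05, and voom on the recovered reads also called 0. When the mean of the class I list replaced H2-K1, 160 genes were called.

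Promoters of the genes that moved with Irf1 carried the letters of the interferon response element more often than promoters at large. The motif searched was GAAA, any 2 bases, then GAAA again, on either strand, in the window from 250 bases before to 50 after the RefSeq start of each gene (build GRCm38.p6, matched by symbol). It was present in 47 of the 116 matched promoters of genes called together with Irf1 (40.5%), in 11 of 15 for the interferon gamma list and in 14 of 22 for the type I list. Among all 27025 promoters of the table the share was 3.49%, and among those of the tested genes 3.26%. It was found in 3 of 9 class I promoters and 2 of 11 class I processing promoters, and in 0 of 7 class II and 0 of 11 T cell promoters. Neither a match nor its lack shows whether a factor bound there. Stretches before the start site are given below for 6 named interferon-inducible GTPases with the smallest p-values in the Irf1 fit among those with a match, with the motif in capitals, to show the letters and their position in these promoters.
Gbp2, chr3:142620579-142620638, plus strand: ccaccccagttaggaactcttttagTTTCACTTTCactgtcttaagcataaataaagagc
Gbp3, chr3:142559974-142560033, plus strand: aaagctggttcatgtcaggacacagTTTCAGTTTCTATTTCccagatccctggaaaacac
Gbp5, chr3:142496744-142496803, plus strand: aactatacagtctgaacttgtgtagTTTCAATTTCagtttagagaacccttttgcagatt
Igtp, chr11:58199497-58199555, plus strand: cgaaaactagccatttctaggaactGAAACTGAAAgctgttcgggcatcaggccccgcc
Irgm2, chr11:58214888-58214947, plus strand: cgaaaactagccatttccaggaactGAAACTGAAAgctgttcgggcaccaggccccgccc
Irgm1, chr11:48871421-48871475, minus strand: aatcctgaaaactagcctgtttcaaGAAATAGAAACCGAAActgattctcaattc
The stretches of Igtp and Irgm2 were identical at 57 of the 59 positions compared, and the run in Gbp3 and in Irgm1 holds 2 overlapping matches.

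The Irf1 pattern rested on the outer pair of sgScramble tumours. Without sgScramble 4, 28 genes were called with Irf1, without sgScramble 2, 34, and with both left out, 0 (835 at an unadjusted p below 0.05). The interferon gamma list gave 10 of 20 calls without sgScramble 4 and 7 without sgScramble 2, with median slopes of 1.52 and 0.97, and 0 without both (0.94). Type I interferon genes gave 3 and 6 of 30 calls without sgScramble 4 and 2 respectively, class II genes 2 and 0 of 8, class I processing genes 2 and 1 of 13, and class I genes 0 of 12 in either fit. Class II calls were also reduced to 3 of 8 without any 1 of sgScramble 3, sgNlrc5 1, sgNlrc5 2 and sgNlrc5 4, and to 3 by voom. H2-T22 was not called by voom, nor without any 1 of the 8 tumours other than sgScramble 1. Without an intensity trend, limma called 9 of 20 interferon gamma, 6 of 30 type I and 2 of 13 class I processing genes, and 0 class I or class II genes.

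The same pattern was read in each guide alone, where no tumour is shared. In sgScramble tumours alone, 76 genes were called together with Irf1, and 73 of them (96.1%) had a positive slope in sgNlrc5 tumours too, against 59.0% of all genes with a positive slope in sgScramble tumours. In sgNlrc5 tumours alone, 0 genes were called with Irf1, whose level there spanned 1.66-fold against 3.45-fold in sgScramble tumours. All 20 interferon gamma genes, all 8 class II genes and 11 of 12 class I genes had positive slopes in each guide, as had 29.6% of all genes. Median slopes of the interferon gamma list were 1.37 in sgScramble and 1.06 in sgNlrc5 tumours, and those of the class II list were 1.20 and 1.33. Erythroid genes did not recur on Irf1, with medians of 0.87 and -1.34. Macrophage genes did not either, with medians of 0.42 and -0.052.

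**Figure D3:**
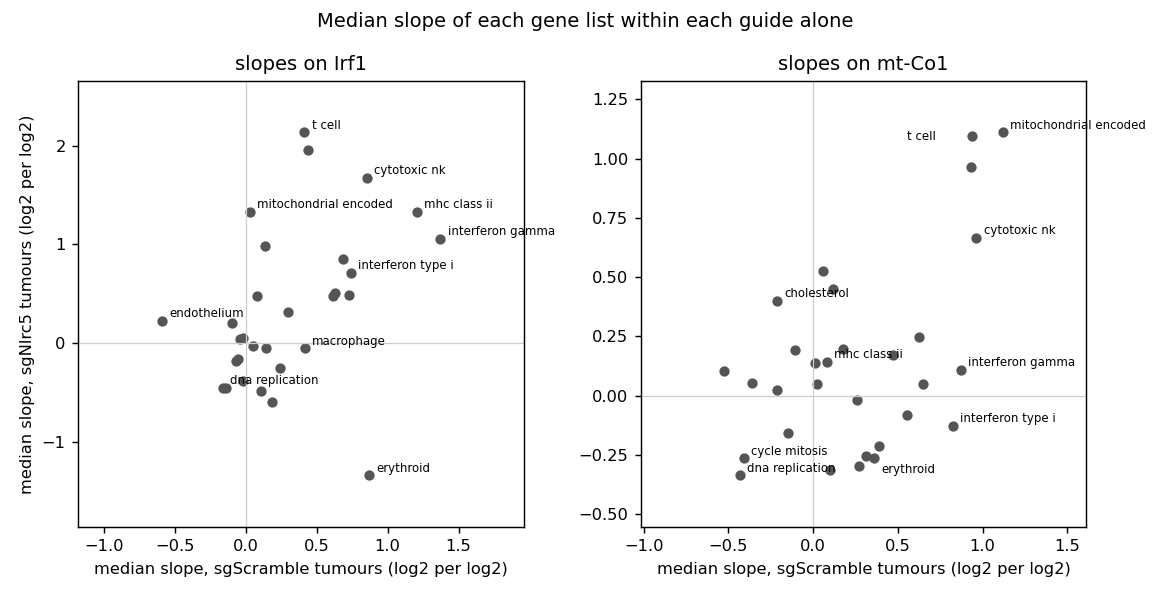
Median slope of each gene list on Irf1 (left) and on mt-Co1 (right) within sgScramble tumours alone (horizontal axes) and sgNlrc5 tumours alone (vertical axes), in log2 per log2; each point is a list with at least 3 tested members. Interferon and class II lists are positive on both axes for Irf1, whereas the erythroid list is positive in sgScramble and negative in sgNlrc5 tumours.

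Leukocyte genes formed a related pattern. Ptprc, which encodes the pan-leukocyte phosphatase CD45, was 110.3, 77.3, 207 and 309.6 normalised counts in sgScramble tumours 1 to 4 and 839, 535, 376 and 531 in sgNlrc5 tumours 1 to 4. With Ptprc as the index gene, 80 of 13384 genes (0.598%) were called higher together and 0 opposite. Of 20 other pan-leukocyte genes, 6 were called, among them Lcp2 and Rac2, signalling proteins of blood cells, with slopes of 0.62 and 0.58. The median slope of that list was 0.49.

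Ccr2, called with Ptprc, is the chemokine receptor of inflammatory monocytes. It was 66.6, 54.4, 138 and 279 normalised counts in sgScramble tumours 1 to 4 and 446, 247, 163 and 229 in sgNlrc5 tumours 1 to 4. Its slope was 1.20 ± 0.11 (limma adjusted p = 0.000843), and the order of tumours was that of Ptprc in both guides. Ccr2 was named under a rule that required the same sign of slope in each guide, so this is no independent support. Gbp8, a guanylate-binding protein, had a slope of 1.55 ± 0.13 and the interleukin 10 receptor chain Il10ra one of 1.13 ± 0.14. Prf1 and Gzmb, the pore protein and protease of cytotoxic granules, were the 2 of 11 cytotoxic genes called, with slopes of 1.10 and 1.09, and 0 of 21 T cell genes passed. The median slope of those T cell genes was 0.85, and 16 of 21 were positive in each guide (76.2%, against 31.2% of all genes). Their signs in sgScramble tumours rest on few counts. The interferon gamma list gave 8 of 21 calls, the type I list 10 of 30, class I processing 2 of 13 (Tapbp and Tap2) and the class I list 1 of 12, which was H2-D1 (slope 0.41 ± 0.08, limma adjusted p = 0.0469). H2-D1 stayed past the threshold in 6 of 18 alternatives, and not without any 1 tumour other than sgNlrc5 1.

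**Figure D4:**
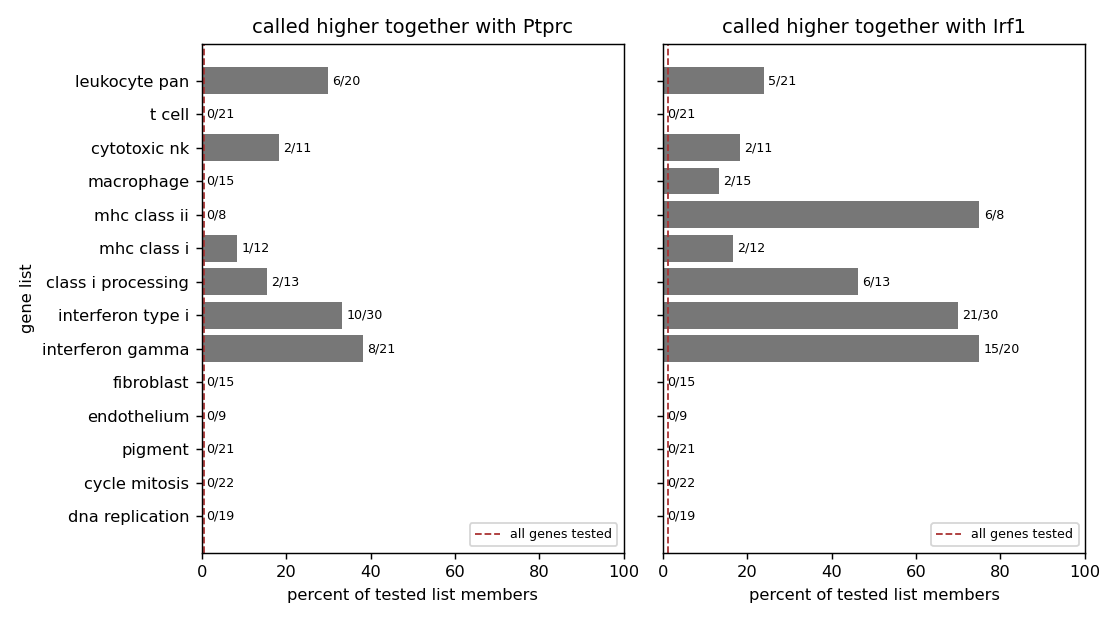
Percent of tested members of 14 gene lists called higher together with Ptprc (left) and with Irf1 (right) at an adjusted p below 0.05; the label gives calls over members tested and the dashed line the share over all genes (0.598% and 1.17%). Interferon gamma genes reach 8 of 21 and 15 of 20, while T cell, pigment and cell cycle lists have 0 calls in both.

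Of 15 macrophage genes, 0 were called with Ptprc. Their median slope was 0.24, against 0.00094 over all genes, and 9 were positive and 0 negative in both guides (60%, against 31.2% of all genes positive in both). Csf1r, the growth factor receptor of macrophages, was 240.2, 151, 199 and 275 normalised counts in sgScramble tumours 1 to 4 and 739, 622, 669 and 529 in sgNlrc5 tumours 1 to 4. Csf3r, the granulocyte colony-stimulating factor receptor, was the only called member of the 3 neutrophil genes that passed the filter, with a slope of 1.13 ± 0.17 (limma adjusted p = 0.0159). On Irf1, 5 of 21 pan-leukocyte and 2 of 15 macrophage genes were called. The macrophage genes were the Fc receptor Fcgr1 (slope 0.89) and the scavenger receptor Msr1 (0.72). Neither list had a call without sgScramble 2 or without sgScramble 4. Median slopes of the macrophage list on Irf1 were 0.42 in sgScramble and -0.052 in sgNlrc5 tumours. Only 6 of the 15 were positive in each guide (40%, against 29.6% of all genes). The defining neutrophil genes S100a8, S100a9 and Ly6g did not pass the filter.

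This pattern too rested on sgScramble tumours 2 and 4: 2 genes were called with Ptprc without sgScramble 2, 1 without sgScramble 4 and 0 without both. The pan-leukocyte list had 0 of 20 calls in each of these fits, with median slopes of 0.51, 0.49 and 0.33. It also had 0 without sgNlrc5 1, 1 without sgNlrc5 3 or 4, 2 without sgScramble 3 or sgNlrc5 2, and 3 by voom, which called 2 of 30 type I interferon genes. In total, 145 genes were called with Ptprc without sgScramble 1, 42 without sgNlrc5 2 and 43 without sgNlrc5 3, and voom called 47. In sgScramble tumours alone, 38 genes were called together with Ptprc, and 37 of them (97.4%) had a positive slope in sgNlrc5 tumours, against 62.4% of all genes with a positive slope in sgScramble tumours. Of 3 genes called together in sgNlrc5 tumours alone, 2 had a positive slope in sgScramble tumours, and of 7 called opposite there, 0 had a negative one.

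Many of the genes on these patterns were not listed for the cultured line. Of the 157 genes called together with Irf1, 89 (56.7%) were not listed in the deposited table of the same line in culture, and of the 80 called with Ptprc, 52 (65%) were not, against 8.55% of all genes tested. Gbp4, Gbp5, Zbp1, H2-Ab1 and Ciita were among the unlisted, while Gbp2, Irgm1 and Psmb10 were listed. That table was normalised on its own, so only presence was read from it.

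T cell genes were led by sgNlrc5 1 and sgScramble 3 in their guides. Cd3e, a signalling chain of the T cell receptor, was 9.19, 0.955, 11.9 and 4.41 normalised counts in sgScramble tumours 1 to 4 and 97.3, 33.2, 20.8 and 49.2 in sgNlrc5 tumours 1 to 4. The 21 T cell genes together stood 0.96 above the guide mean in sgNlrc5 1 and 0.92 below it in sgNlrc5 3, and in sgScramble they were highest in tumour 3 (0.46) and lowest in tumour 2 (-0.52). Cd8a, the CD8 alpha chain, was 317, 173, 97.6 and 111 in sgNlrc5 tumours 1 to 4 but 16.1, 12.4, 17.9 and 11.5 in sgScramble tumours 1 to 4. The lists of cytotoxic, checkpoint and mitochondrially encoded genes had the same order of sgNlrc5 tumours as the T cell list. In sgScramble 4, highest for interferon genes, Cd8a was the lowest of its guide, at a low count close to that of tumour 2. The T cell list there stood 0.30 above the guide mean. The cytotoxic list (0.84) and the checkpoint list (0.49) were highest of the guide in that tumour.

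As an index gene, Cd3e gave 0 calls among 13384 genes (0%), with 436 at an unadjusted p below 0.05 and 0 by voom. With so few counts in sgScramble tumours, its slope is poorly determined, and 13 genes were called when sgScramble 4 was left out. Zap70, the kinase that relays the receptor signal, came nearest among T cell genes, with a slope of 1.03 ± 0.20 (limma adjusted p = 0.846). On Irf1, 0 of 21 T cell genes passed, although 17 of 21 had positive slopes in each guide (81.0%, against 29.6% of all genes). On the mitochondrial gene mt-Co1, 0 of 21 passed as well and 19 of 21 were positive in each guide (90.5%, against 30.4% of all genes). Signs of T cell slopes in sgScramble tumours rest on few counts, so these shares are uncertain. Gzmb, which encodes granzyme B, was 28.7, 21.96, 70.6 and 129 in sgScramble tumours 1 to 4 and 255, 336, 173 and 296 in sgNlrc5 tumours 1 to 4. Gzmb (slope 1.34 ± 0.25, limma adjusted p = 0.0252) and Prf1 (1.33 ± 0.26, limma adjusted p = 0.0289) were the 2 of 11 cytotoxic genes called with Irf1. Voom called 0 of the 11, and limma 0 without sgScramble 4 and 1 without sgScramble 2 or sgNlrc5 3. Cd274, the ligand PD-L1 that interferon gamma induces on tumour and myeloid cells, was 253, 248, 408 and 721 in the sgScramble tumours and 1196, 1149.6, 854 and 1248 in the sgNlrc5 tumours. It was the 1 checkpoint gene of 7 called with Irf1 (slope 0.87 ± 0.14, limma adjusted p = 0.0105), and was not called without sgScramble 4.

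Blood content varied too. Hbb-bs, adult beta globin, was 614, 597, 447 and 2046 normalised counts in sgScramble tumours 1 to 4 and 360.0, 328, 634 and 261 in sgNlrc5 tumours 1 to 4, so that sgScramble 4 and sgNlrc5 3 stood out. Hba-a1, alpha globin, gave 326, 299.8, 185 and 955 in the sgScramble tumours and 187, 106, 406 and 142 in the sgNlrc5 tumours. Its slope on Hbb-bs was 1.10 ± 0.14, yet 0 of 13384 genes (0%) passed with this index gene (Hba-a1: limma adjusted p = 0.133), 433 had an unadjusted p below 0.05 and voom called 1. The median correlation among pairs of the 6 erythroid genes was 0.78. Alas2, the haem synthesis enzyme of red cell precursors, had a slope of 0.84 ± 0.20. Of the 5 other erythroid genes tested on Hbb-bs, 4 had positive slopes in each guide. Klf1 had a negative slope in each guide. sgScramble 4 was thus highest of its guide both for globins and for interferon genes, while sgNlrc5 3 was highest for globins and lowest for interferon genes.

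Stroma did not form 1 pattern. The fibroblast list had a median pair correlation of 0.26 over 15 genes and the mural list -0.083 over 5. Col1a1, a chain of collagen I, was 66.6, 172, 113 and 110.3 normalised counts in sgScramble tumours 1 to 4 and 252, 182, 216 and 142 in sgNlrc5 tumours 1 to 4. As an index gene it gave 0 calls among 13384 genes (0%), with 509 at an unadjusted p below 0.05 and 0 by voom.

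The list means of vessel genes pointed to single tumours. The endothelial list, of which 9 of 16 genes passed the filter, stood 1.03 above the guide mean in sgScramble 2 and 0.56 above in sgNlrc5 4. Summed endothelial counts were instead highest in sgScramble 3 (8079, against 7819 in sgScramble 2) and in sgNlrc5 2 (10099, against 9442 in sgNlrc5 4). The pattern of the list mean thus depends on genes with low counts. Cdh5, the junction protein VE-cadherin, was 2.30, 38.2, 10.9 and 6.17 normalised counts in sgScramble tumours 1 to 4 and 7.02, 13.9, 17.2 and 60.3 in sgNlrc5 tumours 1 to 4. Rgs5, a pericyte gene, was 12.6, 145, 16.9 and 2.65 in the sgScramble tumours and 11.0, 2.14, 9.04 and 3.01 in the sgNlrc5 tumours, so the mural signal of sgScramble 2 had no counterpart in sgNlrc5 4. Igfbp3, an insulin-like growth factor binding protein, was 26.4, 420.1, 64.6 and 32.6 in the sgScramble tumours and reached 119.5 in sgNlrc5 4. sgScramble 2, lowest for interferon genes, had the highest endothelial and mural list means of its guide, and the part of vessel content in the interferon pattern was not tested.

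Pigment genes had a median standard deviation between tumours of 0.14 (log2) in sgScramble and 0.28 in sgNlrc5 tumours, against 0.16 and 0.20 over all genes tested, so it lay below that of all genes in sgScramble and above it in sgNlrc5 tumours. Pmel, which builds the fibrils of melanosomes, was 101730, 128930, 134720 and 124920 normalised counts in sgScramble tumours 1 to 4 and 194990, 247090, 132290 and 156800 in sgNlrc5 tumours 1 to 4. With Pmel as the index gene, 70 genes (0.523%) were called, 51 (0.381%) higher together and 19 (0.142%) opposite. In either guide alone, 0 genes were called with Pmel. Oca2, a melanosomal anion transporter, had a slope of 1.11 ± 0.15 (limma adjusted p = 0.0266), and Gpr143, a melanosomal receptor, 0.88 ± 0.15 (limma adjusted p = 0.0347). These were the 2 of 20 pigment genes called. Oca2 was 2017, 2502, 2458 and 2308 in the sgScramble tumours and 6935, 10502, 4689.9 and 6465 in the sgNlrc5 tumours. Tyr, which starts melanin synthesis, spanned 4.03-fold in sgNlrc5 tumours, from 1466 in tumour 3 to 5910.2 in tumour 2, and its slope did not pass (limma adjusted p = 0.0635).

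Outside the pigment list, Itgb3, the beta 3 integrin chain, had one of the smallest p-values with Pmel, with a slope of 1.52 ± 0.17 (limma adjusted p = 0.0132). It was 462, 765, 802 and 633 normalised counts in sgScramble tumours 1 to 4 and 1286, 1949.7, 747 and 1131 in sgNlrc5 tumours 1 to 4, lowest in the tumour of each guide that was lowest for Pmel. Brca1, which acts in DNA repair (1.24), Fnip1 (1.00), Aph1c, a gamma-secretase subunit (1.17), and the mitochondrial ribosomal RNA mt-Rnr2 (1.77) were called together as well. Opposite to Pmel ran the collagen IV chains of basement membrane, Col4a1 (-1.47 ± 0.19) and Col4a2 (-1.17 ± 0.17), and Deptor, an mTOR-binding protein (-1.17 ± 0.17). Col4a1 was 2681, 2124, 2007 and 1875 in the sgScramble tumours and 951, 846, 2057 and 1709.9 in the sgNlrc5 tumours, highest where Pmel was lowest in each guide. Genes named here had to have a slope of the same sign in each guide, so such agreement followed in part from the choice.

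Pigment promoters held the M-box letters TCATGTG, the site read by the melanocyte factor MITF, on either strand in 7 of 15 matched promoters (46.7%), against 2.25% of promoters of tested genes. Of the genes called together with Pmel, 2 of 35 matched promoters (5.71%) held them. The stretches of Tyr and Tyrp1 show the motif (capitals) in the same surroundings, with agTCATGTGct in both.
Tyr, chr7:87493513-87493554, minus strand: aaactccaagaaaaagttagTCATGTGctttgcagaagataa
Tyrp1, chr4:80834146-80834192, plus strand: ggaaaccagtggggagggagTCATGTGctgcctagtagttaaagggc

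DNA replication genes had negative slopes on several index genes. Their pairs had a median correlation of 0.84, so counts of members are not counts of separate observations. The index genes Pmel and mt-Co1 also had a Pearson r of 0.81 with each other. All 19 replication genes were negative in each guide on Pmel and on mt-Co1, 17 of 19 on Ptprc and 16 of 19 on Irf1. The shares of all genes were 31.3%, 30.7%, 29.95% and 29.2%, in that order. With Pmel, 3 of 19 were called opposite: the helicase subunits Mcm7 (slope -0.95 ± 0.14, limma adjusted p = 0.0281) and Mcm6 (-0.84 ± 0.13, limma adjusted p = 0.0311) and the licensing factor Cdt1 (-0.84 ± 0.15, limma adjusted p = 0.0436). Mcm7 was 1814, 1589, 1506 and 1454 normalised counts in sgScramble tumours 1 to 4 and 1096, 859, 1679.9 and 1249.8 in sgNlrc5 tumours 1 to 4. Of 22 mitosis genes, 1 was called opposite to Pmel, the kinase Aurkb (-0.89 ± 0.13, limma adjusted p = 0.0281). Without an intensity trend or after quantile normalisation, limma called 0 genes with Pmel. No gene was called with Pmel without sgScramble 1, sgScramble 3 or sgNlrc5 3, and 2 were called without sgNlrc5 4, 231 without sgNlrc5 1 and 45 without sgScramble 2. Without sgNlrc5 2, 78 genes were called, but 0 of the pigment, mitosis and replication genes, with median slopes of 0.28, -0.79 and -0.75.

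Cycle genes varied together, and none of the mitosis list passed with Mki67. Pairs of the 19 replication genes had a median correlation of 0.84 and pairs of the 22 mitosis genes 0.76, with sgScramble 1 and sgNlrc5 3 highest. Mki67, the gene of the proliferation antigen Ki-67, was 3928, 4426, 4799 and 3279.5 normalised counts in sgScramble tumours 1 to 4 and 2637, 1624, 987 and 1272 in sgNlrc5 tumours 1 to 4, so sgNlrc5 3 was its lowest tumour. The median slope of 21 mitosis genes on Mki67 was -0.29 and 0 passed. In sgScramble tumours alone it was 0.14 and in sgNlrc5 tumours alone -0.33, so its sign did not recur. For 19 replication genes the medians were 0.33 and -0.30. In sgNlrc5 tumours alone, 39 genes were called together with Mki67, and 25 (64.1%) had a positive slope in sgScramble tumours. Among all genes with a positive slope in sgNlrc5 tumours that share was 48.0%. Of 65 called opposite, 33 (50.8%) were negative in sgScramble tumours, against 47.9%. With Mki67 as the index gene, 4 genes (0.0299%) were called together and 12 (0.0897%) opposite. The 4 included Prpf38b and Rbm25, which act in splicing, and the 12 included the matricellular gene Ccn1 and tissue factor F3 (slope -0.99). Ccn1 was 465, 462, 398 and 571 in the sgScramble tumours and 242, 652, 1049 and 637 in the sgNlrc5 tumours, with a slope of -1.34 ± 0.16 (limma adjusted p = 0.0336). The slopes of Prpf38b, Rbm25, Ccn1 and F3 changed sign when the mean of the mitosis list replaced Mki67. The count with Mki67 was 357 without sgScramble 4 and 0 without any 1 of sgScramble 1, sgNlrc5 1, sgNlrc5 3 and sgNlrc5 4. It was 2 without sgScramble 2, 10 without sgScramble 3 or sgNlrc5 2, and 0 without an intensity trend.

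Promoters of mitosis genes held TTTGAA, the core of the cell cycle homology region through which the DREAM complex acts, on either strand in 13 of 18 cases (72.2%), against 2 of 15 for replication genes (13.3%) and 12.1% for promoters of tested genes. Cdk1, the mitotic kinase, and Cdc20, an activator of the anaphase-promoting complex, are shown with those letters in capitals.
Cdk1, chr10:69352958-69353003, minus strand: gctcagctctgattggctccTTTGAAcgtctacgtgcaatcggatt
Cdc20, chr4:118437344-118437381, minus strand: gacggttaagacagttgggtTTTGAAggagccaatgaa

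Mitochondrially encoded transcripts varied together in both guides. The index gene mt-Co1, a subunit of cytochrome oxidase, was added after the list means had been seen. It was 176130, 218180, 309130 and 265730 normalised counts in sgScramble tumours 1 to 4 and 473400, 420570, 231310 and 196350 in sgNlrc5 tumours 1 to 4. With it, 87 genes (0.65%) were called together and 55 (0.411%) opposite. Of the 14 other mitochondrially encoded genes, 10 were called, with a median slope of 1.10, and all 14 were positive in each guide. In sgScramble tumours alone, 0 genes were called with mt-Co1. In sgNlrc5 tumours alone, 23 genes were called together and 20 of them (87.0%) had a positive slope in sgScramble tumours, against 59.7% of all genes with a positive slope in sgNlrc5 tumours. Of 17 called opposite, 14 (82.4%) were negative in sgScramble tumours, against 62.5%.

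Nuclear genes on this pattern included Mir99ahg, a host transcript of microRNAs, with a slope of 2.14 ± 0.20 (limma adjusted p = 0.00264). Mir99ahg was 85.0, 177, 349.9 and 191 normalised counts in sgScramble tumours 1 to 4 and 496, 228, 82.3 and 64.3 in sgNlrc5 tumours 1 to 4. Ahnak2, a gene for a very large scaffold protein, had a slope of 1.54 ± 0.18 and the values 410.2, 988, 1234 and 796, then 1952, 1786, 597 and 592. Both genes were highest in sgScramble 3 and sgNlrc5 1, as was mt-Co1, but the rule that named them required the same sign of slope in each guide. Ccnd1, encoding cyclin D1, was opposite with a slope of -0.59 ± 0.09 (limma adjusted p = 0.0209), and so was the mitotic kinesin Kif20a (-0.75 ± 0.12, limma adjusted p = 0.0238). Calls with mt-Co1 depended on several tumours: 0 were made without sgNlrc5 1, 6 without sgNlrc5 3, 11 without sgScramble 1, 12 without sgScramble 3, 36 without sgNlrc5 2, and 78 without sgScramble 4 or sgNlrc5 4. Quantile normalisation left 4 calls, and a fit without an intensity trend 0.

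Sex-linked transcripts moved with it. Xist, transcribed from the inactive X chromosome of female cells, was the most variable gene of each guide among 10401 genes with a mean of at least 50, with a standard deviation of 2.72 (log2) in sgScramble and 2.71 in sgNlrc5 tumours. It was 3.45, 148, 193 and 236 normalised counts in sgScramble tumours 1 to 4 and 757, 554, 22.6 and 26.1 in sgNlrc5 tumours 1 to 4. The Y-linked Ddx3y, an RNA helicase gene, was high in the tumours where Xist was lowest, with 13.8, 0.955, 0 and 0 in the sgScramble tumours and 0, 0, 42.5 and 45.2 in the sgNlrc5 tumours. Eif2s3y (21.8, 0, 0.994 and 0, then 0, 0, 39.8 and 41.2) and Uty (11.5, 0, 0 and 1.76, then 0, 0, 16.3 and 14.1) were highest in those 3 tumours too. Xist, Ddx3y, Eif2s3y and Uty were not listed in the culture table of the line.

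**Figure D5:**
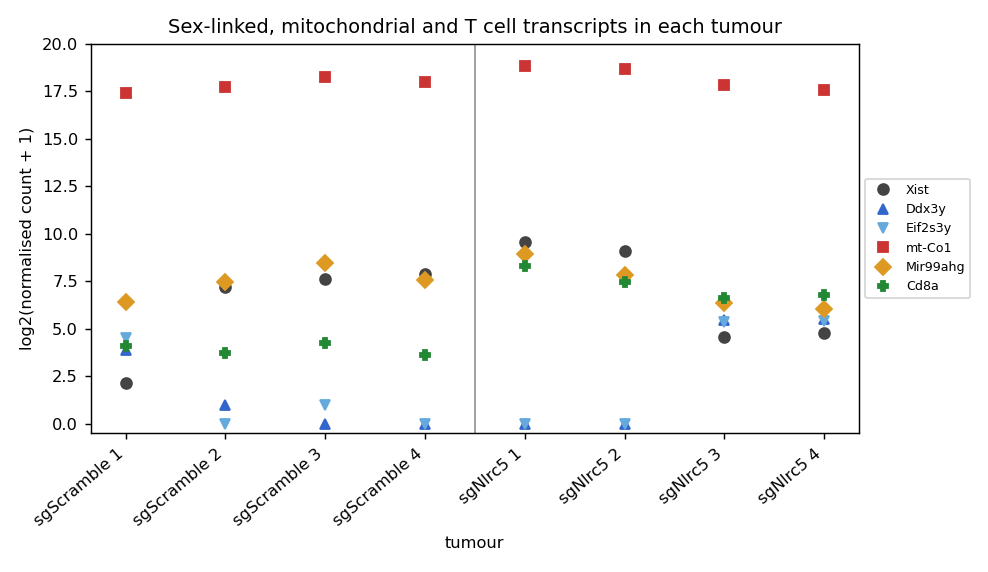
Level of 6 transcripts in each tumour, as log2(normalised count + 1); the vertical line separates the guides. Ddx3y and Eif2s3y are detected together in sgScramble 1, sgNlrc5 3 and sgNlrc5 4, the tumours in which Xist and mt-Co1 are lowest within their guide.

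The tumours with Y-linked transcripts, sgScramble 1 and sgNlrc5 3 and 4, were also those with the lowest mt-Co1 of their guides, and Ddx3y (slope -4.93 ± 0.74, limma adjusted p = 0.0223) and Xist (4.79 ± 0.72, limma adjusted p = 0.0223) were both called with mt-Co1 (chosen after their values were seen). When the summed Y-linked transcripts entered the fit as a second term, a choice made after seeing the data, the calls with mt-Co1, Pmel and Mki67 all went to 0. In that fit, on Pmel the median slope of replication genes was -0.94, against -0.79 without that term, and that of pigment genes 0.75, against 0.42. On mt-Co1 the median slope of the other mitochondrially encoded genes was 0.87, against 1.10, and that of mitochondrially encoded genes on Pmel was -0.090, against 1.67. The calls with Irf1 were 201 and those with Ptprc 186 in the same fit. The sex of the hosts was not given in the sources used here, and its part in the mt-Co1, Pmel and Mki67 patterns cannot be told apart from other differences between these tumours. For T cell genes, sgNlrc5 tumours 3 and 4, with Y-linked transcripts, were below the guide mean and tumours 1 and 2 above it. In sgScramble, tumour 1 (-0.25) lay below the mean too, but tumour 2 (-0.52), nearly without Y-linked transcripts, was lower.

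Pairs of index genes were also tested directly, on centred values with an exact permutation of tumours within each guide (576 arrangements, smallest possible two-sided p 0.0017). Of 28 pairs, 0 passed after Benjamini-Hochberg adjustment. A single pair could pass only at that smallest p, so the lack of calls says little. Ptprc and H2-K1 had a Pearson r of 0.82 (exact p = 0.030, adjusted 0.413) and a Spearman rho of 0.69 (exact p = 0.101, adjusted 0.705). Without sgScramble 2 and 4, the tumours farthest from the median of Ptprc, r was 0.57. Ptprc and Cd3e had r 0.61 (exact p = 0.174, adjusted 0.694) and rho 0.62 (exact p = 0.16, adjusted 0.819), with r 0.85 without the same tumours. In the added family of 8 pairs with mt-Co1, the highest was with Pmel (r 0.81, exact p = 0.075, adjusted 0.333).

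Principal components were computed without index genes. In sgScramble tumours the components took 40.6%, 38.5% and 20.9% of the variance. The first set tumours 4 and 3 against 1 and 2, with Gbp11, Gbp10, Apol6, Ly6c2 and also Xist among the genes at its high end and Igfbp3 at its low end, and the second set tumour 1 against 2, with Xist at its low end. In sgNlrc5 tumours they took 54.7%, 25.3% and 20.03%. There the first set tumours 1 and 2 against 3 and 4, with Xist and Mir99ahg at the high end and Cd5l, a macrophage scavenger protein, and Serpina3n at the low end. Loadings of the first components had a correlation of 0.27 across 13385 genes, which are not independent replicates, and that of the first sgNlrc5 with the second sgScramble component was -0.16. Gbp10, Gbp11 and Apol6 came at the high end of the third sgNlrc5 component and Xist among the genes at its low end, so interferon genes led the first component in 1 guide and the last in the other, and neither guide had interferon genes and Xist wholly on different components.

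Single genes stood out within 1 guide. Gbp11 was 6.89, 6.68, 43.7 and 177 normalised counts in sgScramble tumours 1 to 4, a span of 26.5-fold, and Apol6, an interferon-inducible apolipoprotein L gene, was 99.97, 22.9, 219.7 and 599.8. Ly6c2, a marker of inflammatory monocytes and activated T cells, was 5.75, 7.64, 45.7 and 82.0, so tumours 3 and 4 lay above 1 and 2. In sgNlrc5 tumours 1 to 4, Cd5l was 22.1, 26.8, 728 and 77.4 and Serpina3n, an acute-phase serpin, 16.04, 47.2, 172 and 70.3. Both were highest in sgNlrc5 3, the tumour that was also highest for globins and cycle genes and lowest for T cell genes.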

How the data were processed

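Values were deposited as log2 of a normalised count plus 1, per the labels. The submitters' processing notes name DESeq2 1.36.0, STAR 2.7.10a and FastQC 0.12.0. The builds named there are GRCm39 and mm39. Neither counting tool nor strand setting is given in the sources used here. Total RNA had been made into strand-specific libraries, per the labels' protocols. Low values were whole multiples of 1 step per tumour (100% within 0.1), which gave the reads. Those reads cover listed genes only, and precision is limited further by 4 tumours per guide.

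The filter kept genes averaging 10 or more normalised counts over the 8 tumours, which were fitted with limma 3.58.1 (R 4.3.3), with a mean per guide, the log2 level of 1 index gene and an intensity trend. Index genes were Ptprc, Cd3e, H2-K1, Hbb-bs, Col1a1, Pmel and Mki67, with mt-Co1 and Irf1 added after the values were seen. One further planned index gene and some genes the naming rule selects are not reported here. Errors after slopes are standard errors. On data simulated after the Irf1 fit, 68.2% of slopes of 0.5, 89.6% of slopes of 1 and 100% of slopes of 2 were called among 13335 genes, with 7 false calls among 179. The dispersion used there was 0.0102 for each slope size. In sgScramble tumours the median standard deviation (log2) was 0.99 for the interferon gamma list and 0.16 over all genes tested. Performance for genes that vary as much as that list, or that vary together, was not tested. Named genes were the index genes, Nlrc5, the class I list, up to 6 called genes per direction with the smallest p, a mean of at least 50, no predicted name and the same sign in each guide, up to 4 members per list, and the 6 most variable genes per guide. Further genes, including those of the sex-linked and vessel paragraphs, were named after their values were seen. Members and lists were chosen with earlier results of these data known. The planned edgeR alternative was not run, because the deposited unit is not a count, and voom on recovered reads replaced it. Promoters came from RefSeq (GRCm38.p6), matched by symbol, an earlier build than the authors'.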

Additional observations from a re-analysis of the deposited data

Results flagged for a closer look

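Among 78 groups of 4 tumours, 5 list means had 1 tumour set apart from the other 3 by a gap, relative to the range, above Dixon's 95% critical value for 4 samples. Chance flags about 1 in 20 groups. All values are log2 and centred on the guide mean. In sgScramble 4 the neutrophil list stood at 1.01, resting on 3 genes, the dendritic list at 0.282 and the hypoxia and glycolysis list at 0.142. In sgNlrc5 1 the pan-leukocyte list stood at 0.386, with the other tumours between -0.172 and -0.0822. In sgNlrc5 3 the erythroid list stood at 0.744, with the others between -0.363 and -0.18.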

How the results depend on the processing

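The main counts were 80 genes for Ptprc, 157 for Irf1, 70 for Pmel, 16 for Mki67 and 142 for mt-Co1, and 0 for Cd3e, H2-K1, Hbb-bs and Col1a1. A mean of at least 50 gave 51 for Ptprc and 113 for Pmel, and a pseudocount of 5 gave 109 for Pmel. Quantile normalisation gave 33 for Ptprc, 0 for Pmel, 31 for Mki67 and 4 for mt-Co1. Without an intensity trend the counts were 27 for Ptprc, 52 for Irf1, 1 for H2-K1 and 0 for Pmel, Mki67 and mt-Co1. The mean of the marker list as covariate gave 160 for H2-K1, 1 for Col1a1, 0 for Pmel and Mki67, and 418 for mt-Co1. Under it the slopes of 9 named genes on the mitosis list had the opposite sign to those on Mki67: Prpf38b -0.97, Rbm25 -1.46, Sltm -1.05, Resf1 -0.83, Ccn1 1.20, Masp1 1.20, F3 1.31, Selenbp1 0.72 and Rhob 0.77. The mitosis list itself had a median slope of -0.29 on Mki67, so these reversals are not separate results. The cause was not tested.

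The planned edgeR fit was not run, since the deposited unit is not a count. Alternatives chosen after seeing the data were voom, with 47 for Ptprc and 1 for Hbb-bs, the Y-linked transcripts as a second term, with 186 for Ptprc, 1 for H2-K1 and for Hbb-bs, and 0 for Pmel, Mki67 and mt-Co1, and leaving out sgScramble 2 and 4 together. The last gave 0 for Ptprc and Irf1, 1 for Cd3e and for H2-K1, 3 for Col1a1, 6 for Pmel and 177 for Mki67. Leaving out 1 tumour at a time gave 1 to 145 for Ptprc, 0 to 13 for Cd3e, 28 to 179 for Irf1, 0 for H2-K1 and Col1a1, 0 to 1 for Hbb-bs, 0 to 231 for Pmel, 0 to 357 for Mki67 and 0 to 132 for mt-Co1. The similarity of first components, 0.27, was 0.195 with a mean of at least 50, 0.117 after quantile normalisation and 0.145 to 0.311 without 1 tumour. Their variance shares ranged from 40.6% to 65.5% in sgScramble and 54.7% to 70.8% in sgNlrc5 tumours, in part because fewer tumours leave fewer components. No pair of index genes passed in any fit. Without 1 tumour, or with the replicate number as a block, too few arrangements remain for a single pair to pass after adjustment. Those fits therefore cannot show whether the pairs are stable.

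With the replicate number as a block, the counts were 391 for Ptprc, 42 for Irf1, 187 for Pmel, 0 for Mki67 and 462 for mt-Co1, and 0 for the other 4. Tumours with the same number had correlations of -0.21, 0.11, -0.18 and -0.017 across genes, and 1 of 4 sgScramble tumours correlated best with its own number, so the numbers were not treated as pairs. The block leaves few residual degrees of freedom.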
